A study of Mus musculus with 3 samples.

Results

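A stretch of mid chromosome 1, chr1:95908059-120184250 in mouse genome build mm9, was examined in 3 neurosphere lines by array comparative genomic hybridisation. Its members were chosen by their measured ratio of line to liver DNA, which was low in these same arrays, so the level of the stretch is given as a description with no test. The stretch holds 1061 of the 170293 oligonucleotide probes with a value on all 3 arrays, and 24 of the 2397 autosomal bins of 1 Mb. The 11429 probes on the rest of chromosome 1 served as the comparison.

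Neurospheres are cultures of floating cell clusters, here grown from mouse gliomas resistant to an inhibitor of CSF-1R, the receptor that macrophages and microglia depend on. The 3 lines form 1 group, with no untreated or inhibitor-sensitive line, and were at passages 2 to 3. Lines 2 and 3 carry the same animal number and the same liver label, and line 1 has its own. Line DNA was labelled with Cy5 and liver DNA with Cy3, with no dye swap, while strain, genotype, sex, age and the inhibitor's name stand in no source used here. As the 3 arrays come from 2 animal numbers, the SD over lines measures only the spread between these lines.

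Array comparative hybridisation reads copy number from the balance of test and reference DNA on each probe, because both compete for the same spot. Loss of 1 of 2 copies in every cell would give a log2 ratio of -1, and gain of 1 copy would give 0.585. The stretch is poor in genes and holds 2 large neuronal genes of the contactin-associated family (Cntnap5a and Cntnap5b), type II cadherins, which join neighbouring cells, a cluster of clade B serpins, which are intracellular protease inhibitors, and Bcl2, which blocks apoptosis.

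The probes themselves show what was measured, and 8 of the 1061 are printed here with G and C in capitals, since base composition bears on hybridisation. They are the probes at both bounds, the probes with the lowest and the highest mean over the lines, and the middle probe of 4 long genes. The letters are those of the array's design, with strand not stated by any source used here.
First probe of the stretch, chr1:95908059-95908118: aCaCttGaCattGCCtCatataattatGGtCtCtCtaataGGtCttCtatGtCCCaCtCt
Lowest mean, inside Bcl2, chr1:108539827-108539886: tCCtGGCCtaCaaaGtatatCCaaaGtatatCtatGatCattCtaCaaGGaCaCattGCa
Highest mean, inside Cdh20, chr1:106691108-106691167: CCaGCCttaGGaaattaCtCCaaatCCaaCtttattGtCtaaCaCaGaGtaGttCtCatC
Middle probe of Pam, chr1:99844982-99845041: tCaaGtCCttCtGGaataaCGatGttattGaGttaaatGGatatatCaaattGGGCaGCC
Middle probe of Cntnap5b, chr1:101987324-101987383: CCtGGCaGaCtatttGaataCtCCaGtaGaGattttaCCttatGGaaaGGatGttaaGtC
Middle probe of Bcl2, chr1:108511136-108511195: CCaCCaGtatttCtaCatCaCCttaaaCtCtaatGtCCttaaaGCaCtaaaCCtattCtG
Middle probe of Cntnap5a, chr1:118047816-118047875: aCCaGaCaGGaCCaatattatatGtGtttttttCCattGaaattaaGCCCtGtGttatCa
Last probe of the stretch, chr1:120184193-120184250: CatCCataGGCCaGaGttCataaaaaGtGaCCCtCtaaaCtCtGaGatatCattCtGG
The lowest probe read -1.17, -0.72 and -0.75 in lines 1, 2 and 3, and the highest read 1.21, 0.45 and 0.52. Both are single probes, in genes that averaged -0.060 (Bcl2) and 0.036 (Cdh20) over lines. The middle probe of Cntnap5a read -0.68, -0.19 and -0.53, and that of Pam read -0.28, 0.069 and 0.035. The middle probe of Bcl2 read -0.11, -0.052 and -0.29. In each line it differed from the lowest probe, in the same gene, by more than the level of the whole stretch. GC content averaged 36.6% (SD 1.97) over the probes of the stretch and 36.7% (SD 1.90) over the rest of chromosome 1, so probe composition was close to equal in the 2 sets.

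The stretch lay slightly below the liver level in all 3 lines. Its mean log2 ratio was -0.067, -0.108 and -0.077 in lines 1, 2 and 3, with 95% intervals of -0.088 to -0.045, of -0.12 to -0.092 and of -0.093 to -0.061. These intervals come from means of 10 neighbouring probes and cover probe error within 1 array only. The rest of chromosome 1 averaged -0.00061, -0.0022 and 0.0013. The stretch was therefore lower than the rest by 0.083 on average, a difference of -0.083 ± 0.020 (SD, n = 3) that had the same sign in each line. On the ratio scale, line DNA stood at 95.5%, 92.8% and 94.8% of liver DNA. This is far from the -1 of a 1-copy loss in every cell.

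The shift was small beside the scatter of single probes. Probes of the stretch had an SD of 0.37, 0.23 and 0.23 in lines 1, 2 and 3, and the middle 90% of probes ran from -0.68 to 0.52, from -0.47 to 0.29 and from -0.44 to 0.31. Of the 1061 probes, 57.5%, 69.4% and 65.3% were below 0, against 49.9%, 51.2% and 50.8% of probes on the rest of the chromosome. In all 3 lines at once, 503 probes (47.4%) were below 0, where the share over all autosomal probes was 34.0%. The rule used this same measure, so nothing is read from that excess. Nearly all probes of the stretch were bright enough to measure: liver DNA cleared the background mark on 97.4%, 98.9% and 99.2% of them, and line DNA on 99.2% to 99.6%.

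Probes in named genes and probes between genes were both low. The 550 probes without a gene name averaged -0.079, -0.13 and -0.084 in lines 1, 2 and 3, and the 511 probes with one averaged -0.053, -0.089 and -0.069. On the rest of chromosome 1 the probes without a name averaged -0.0067, 0.0074 and 0.025. The shift was thus not carried by named genes alone, and the probes between genes were the lower set in each line.

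In bins of 1 Mb most of the stretch read below 0, and the bins between 106 and 109 Mb lay nearest 0 on the mean over lines. Of the 24 bins, 23 held at least 20 probes, and 21 of these 23 had a mean below 0 in all 3 lines, where the share over all autosomal bins was 30.8% (729 of 2369). On the rest of chromosome 1 it was 54 of 168 bins (32.1%). The lowest, median and highest bin means were -0.15, -0.071 and 0.065 for line 1, then -0.19, -0.11 and -0.021 for line 2, and lastly -0.18, -0.067 and -0.018 for line 3. The 2 exceptions were above 0 in line 1 only: the bin from 100 to 101 Mb, which holds Slco6d1, read 0.030, -0.093 and -0.083, and the bin from 106 to 107 Mb, which holds Cdh20, read 0.065, -0.079 and -0.039.

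**Figure D1:**
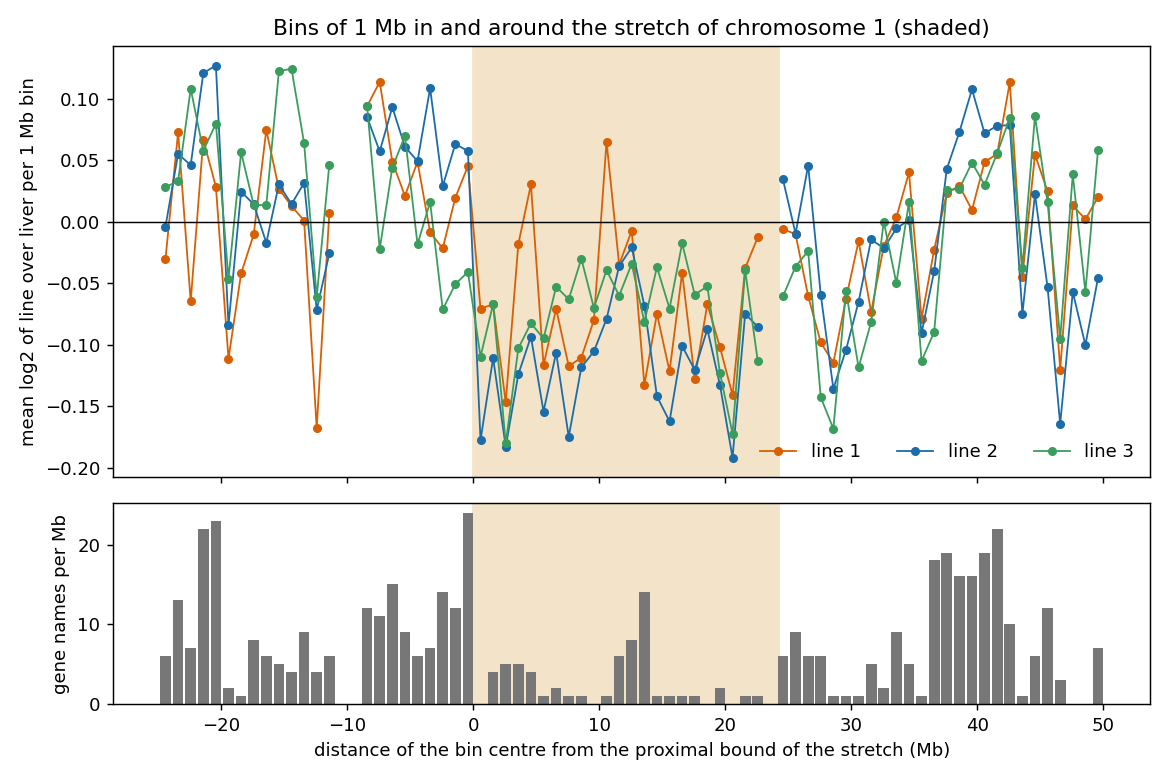
Mean log2 ratio of line over liver in bins of 1 Mb (upper panel, 1 colour per line) and number of gene names in each bin (lower panel), against distance from the proximal bound of the stretch in Mb; the stretch is shaded and bins of under 20 probes are left out of the upper panel. Inside the shaded part 21 of 23 bins are below 0 in all 3 lines, and lines 2 and 3 have no bin above 0.

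The lowest bins lay at 98 to 99 Mb and at 116 to 117 Mb. The first holds organic anion transporter genes and read -0.15, -0.18 and -0.18, with 5 gene names, and the second holds no gene name and read -0.14, -0.19 and -0.17. The bin from 119 to 120 Mb, with no gene name and only 14 probes, read -0.24, -0.21 and -0.14 and was left out of the counts. The bins from 107 to 109 Mb, around Pign, Tnfrsf11a, Phlpp1 and Bcl2, read -0.035, -0.036 and -0.060 and then -0.0074, -0.021 and -0.034. The first of these lay in line 3 close to the median bin of that line (-0.067), and the second was nearer 0 in each line.

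Divided by its landmark genes, the stretch had 1 section that stood higher than the others. From 106 to 109 Mb, from Cdh20 to Vps4b, 193 probes averaged 0.00031, -0.040 and -0.044 in lines 1, 2 and 3, with 95% intervals over probes that include 0 in each line. The sections on each side were lower: the 229 probes from 101 to 106 Mb, with Cntnap5b and the gap distal to it, averaged -0.099, -0.13 and -0.068, and the 220 probes from 110 to 117 Mb, with Cdh7, Cdh19 and Dsel, averaged -0.095, -0.13 and -0.070. The proximal 66 probes from 96 to 98 Mb averaged -0.068, -0.14 and -0.083, and the 154 probes from 98 to 101 Mb averaged -0.047, -0.14 and -0.12. The distal 132 probes from 117 to 120 Mb, with Cntnap5a, averaged -0.047, -0.094 and -0.086. The 54 probes of the serpin section, from 109 to 110 Mb, averaged -0.13, -0.068 and -0.082, and their intervals also include 0 in each line. In line 1, the intervals of the sections from 96 to 98, 98 to 101 and 117 to 120 Mb include 0 as well. The sections were set after the positions and earlier results were known, and differences among them are a description.

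Gene number was not part of the rule, and the stretch was poor in genes. The array has 2.5 ± 3.27 gene names per Mb there (SD over 24 bins, median 1), against 7.53 ± 5.85 on the rest of chromosome 1 (169 bins, median 6). Bins of 0 to 2 names made up 70.8% of the stretch and 22.5% of the rest. Probes were also sparser, at 43.7 per Mb against 67.3 per Mb. RefSeq (GRCm38.p6, used for gene order only) lists 41 protein-coding genes from Pdcd1 up to Tsn, which is 3.4% of the 1204 on the chromosome, while the stretch spans 12.5% of the length covered by probes. Of these 41 genes, 35 have a name on the array. Bins are neighbours on 1 chromosome and no replicates, so these values carry no test.

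Bins with few genes were also low elsewhere. The 37 bins of 0 to 2 names on the rest of chromosome 1 averaged -0.056, -0.087 and -0.034 in lines 1, 2 and 3, and the 532 such bins on autosomes outside the stretch averaged -0.057, -0.079 and -0.023. The 16 such bins of the stretch with at least 20 probes averaged -0.077, -0.13 and -0.072, which was lower than both sets in each line. The stretch was chosen for its low ratio in these arrays, so nothing is read from that difference. Single bins of this class reached -0.18 on the rest of chromosome 1 and -0.22 on other autosomal sequence, against -0.17 in the stretch. At the other end, bins of more than 10 names on the rest of the chromosome averaged 0.037, 0.040 and 0.015. Gene number and level therefore moved together over these arrays, and the part of gene number in the low level of the stretch was not tested.

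Within the stretch, gene number ordered the bins only loosely. Over its 23 bins the correlation of the mean over lines with the number of names was r = 0.17 (Spearman 0.25), and by line it was 0.011, 0.46 and -0.043. Over the 168 bins of the rest of chromosome 1 it was r = 0.48 (Spearman 0.52), and by line it was 0.42, 0.59 and 0.26. With the number of probes per bin, r was 0.37 in the stretch and 0.34 on the rest. With the mean GC content of those probes, r was 0.0098 and 0.31. These points share their arrays and lie side by side, and are given as a description. The serpin cluster from 109 to 110 Mb shows the loose fit: it has 14 names, the most of any bin of the stretch, and read -0.13, -0.068 and -0.082. The 43 bins of more than 10 names on the rest of the chromosome had a lowest mean over lines of -0.070, and the serpin bin stood at -0.094 ± 0.034 (SD, n = 3). Among the 714 such bins on autosomes outside the stretch, the lowest mean over lines was -0.13, so the serpin bin lay within their range.

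**Figure D2:**
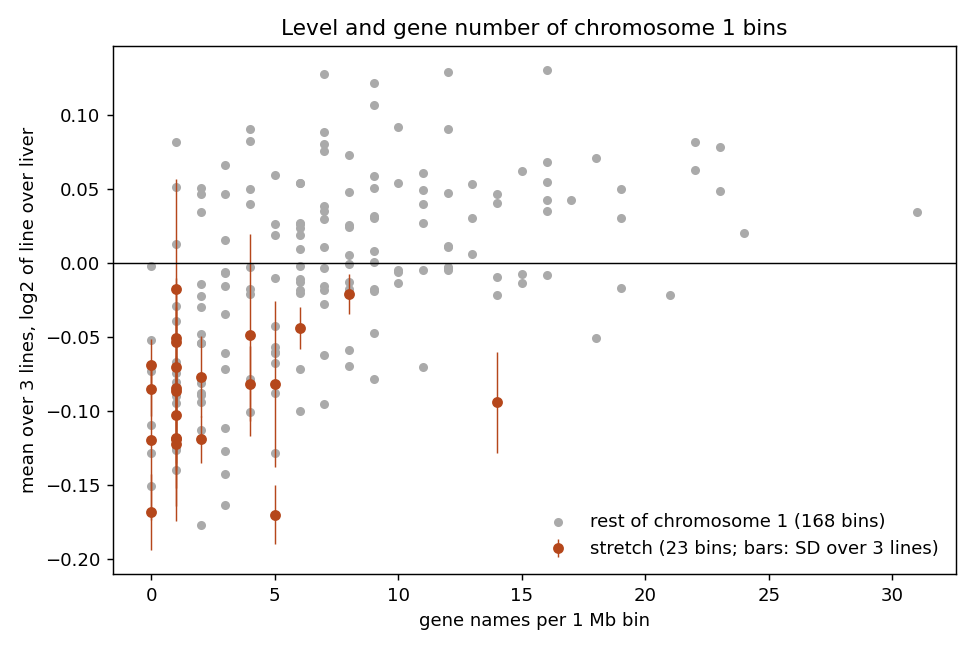
Mean log2 ratio over the 3 lines of each chromosome 1 bin of 1 Mb against the number of gene names in it; grey points are the 168 bins outside the stretch, and coloured points with bars (SD over 3 lines) are its 23 bins. All 23 lie below 0, and the serpin bin, with the most names of the 23 (14), lies at -0.094.

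The array names 61 genes or transcripts in the stretch, of which 35 have at least 3 probes. Of these 35, 21 had a mean below 0 in all 3 lines, where the share over all autosomal genes was 27.2% (2483 of 9124). The median of their means over lines was -0.076, beside 0.013 over all autosomal genes of at least 3 probes. Averaged over lines, 7 of the 35 were at or above 0. The other 26 names have 1 or 2 probes each.

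Cntnap5a and Cntnap5b encode neurexin-like membrane proteins of neurons. Cntnap5b (chr1:101684122-102374237, 69 probes) averaged -0.12, -0.13 and -0.062 in lines 1, 2 and 3, with SE over probes of 0.042, 0.026 and 0.029, and its mean was -0.102 ± 0.034 (SD, n = 3). Cntnap5a (chr1:117586079-118471924, 86 probes) averaged -0.0066, -0.072 and -0.077, with SE of 0.042, 0.024 and 0.025, and a mean of -0.052 ± 0.039 (SD, n = 3). Both were below 0 in each line, but Cntnap5a was within its SE of 0 in line 1. St8sia4, which builds polysialic acid on neural cell adhesion molecules (chr1:97487645-97556056, 9 probes), averaged -0.28, -0.18 and -0.073. Dsel, a gene of dermatan sulfate synthesis, has 1 probe, which read 0.26, 0.29 and 0.17.

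The 3 cadherins did not share 1 level. Cdh19, a cadherin of glial and Schwann cell lineages (chr1:112797551-112869030, 8 probes), averaged -0.17, -0.18 and -0.13 and was the lowest. Cdh7 (chr1:111884656-112035271, 16 probes) averaged -0.039, -0.11 and -0.0041. Cdh20 (chr1:106669981-106888536, 22 probes) averaged 0.13, -0.051 and 0.031, with SE of 0.089, 0.047 and 0.044, so that its sign differed between lines.

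The organic anion transporters, which carry bile acids, hormones and other anions across membranes, had means over lines from -0.22 to -0.074. Slco6b1 (chr1:98803944-98888972, 8 probes) averaged -0.14, -0.28 and -0.25, and was among the 5 lowest genes of the stretch. Slco6c1 averaged -0.068, -0.12 and -0.15 over 7 probes, and Slco6d1 averaged -0.102, -0.084 and -0.11 over 8 probes. Slco4c1 averaged 0.0088, -0.10 and -0.13 over 7 probes. Of the 4, 3 were below 0 in all 3 lines, beside 21 of 35 genes (60%) of the stretch and 27.2% of autosomal genes of at least 3 probes, and nothing is read from so few.

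The 3 survival and signalling genes did not share 1 level. Bcl2 (chr1:108435680-108608199, 19 probes) averaged -0.051, -0.034 and -0.096, with SE of 0.096, 0.064 and 0.057. Phlpp1, a phosphatase that acts on AKT (chr1:108076867-108284240, 22 probes), averaged 0.064, -0.0064 and 0.045. Tnfrsf11a, which encodes the receptor RANK (chr1:107685558-107744373, 6 probes), was above 0 in all 3 lines at 0.24, 0.27 and 0.13, with SE of 0.16, 0.051 and 0.065. It was among the 5 highest genes of at least 3 probes. Next to it on the proximal side, 2310035C23Rik averaged 0.041, -0.0069 and 0.081. Pign, which lies beyond 2310035C23Rik, was below 0 in all 3 lines.

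Genes of membrane lipids, peptide processing and trafficking had means over lines from -0.19 to -0.033. Pam, which amidates neuropeptides (chr1:99731425-99984347, 27 probes), averaged -0.074, -0.14 and -0.096, a mean of -0.102 ± 0.032 (SD, n = 3). Pign, an enzyme of glycosylphosphatidylinositol anchor synthesis, averaged -0.11, -0.13 and -0.15 over 12 probes, and Rnf152, a ubiquitin ligase of the lysosome, averaged -0.21, -0.16 and -0.20 over 8. Kdsr, of sphingolipid synthesis, averaged -0.12, -0.15 and -0.27 over 4 probes. Vps4b, an ATPase of membrane scission, averaged -0.102, -0.0060 and -0.11 over 3, and the 2 probes of Gin1 averaged -0.030, -0.11 and -0.22. Ppip5k2, an inositol pyrophosphate kinase, averaged 0.0023, -0.17 and -0.15 over 7 probes, and Zcchc2 averaged -0.077, 0.025 and -0.046 over 4. Of the 7 with at least 3 probes, 5 were below 0 in all 3 lines, a share near the 60% of the stretch, where it was 27.2% over all autosomal genes.

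The clade B serpins were spread widely, on few probes each. Of the 12 genes in the list, 10 have a name on the array, with 17 probes in all, and Serpinb3a and Serpinb3d have none of their own. Serpinb11 averaged -0.43, -0.17 and -0.23 over 3 probes, and Serpinb13 averaged -0.55, -0.40 and -0.31 over 2. Serpinb5, known as maspin, read 0.36, 0.19 and 0.21 on 1 probe, and Serpinb3b read 0.76, 0.22 and -0.012 on 1. Serpinb7 averaged 0.022, 0.044 and -0.040 over 3 probes. Below 0 in all 3 lines were Serpinb8 and Serpinb10, which the array names Serpinb10-ps, besides Serpinb11 and Serpinb13. Serpinb2, Serpinb3c and Serpinb12 had both signs among the lines. The list had a median of -0.030 with means from -0.42 to 0.32, and members of near-identical sequence in the Serpinb3 group cannot be told apart with certainty.

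**Figure D3:**
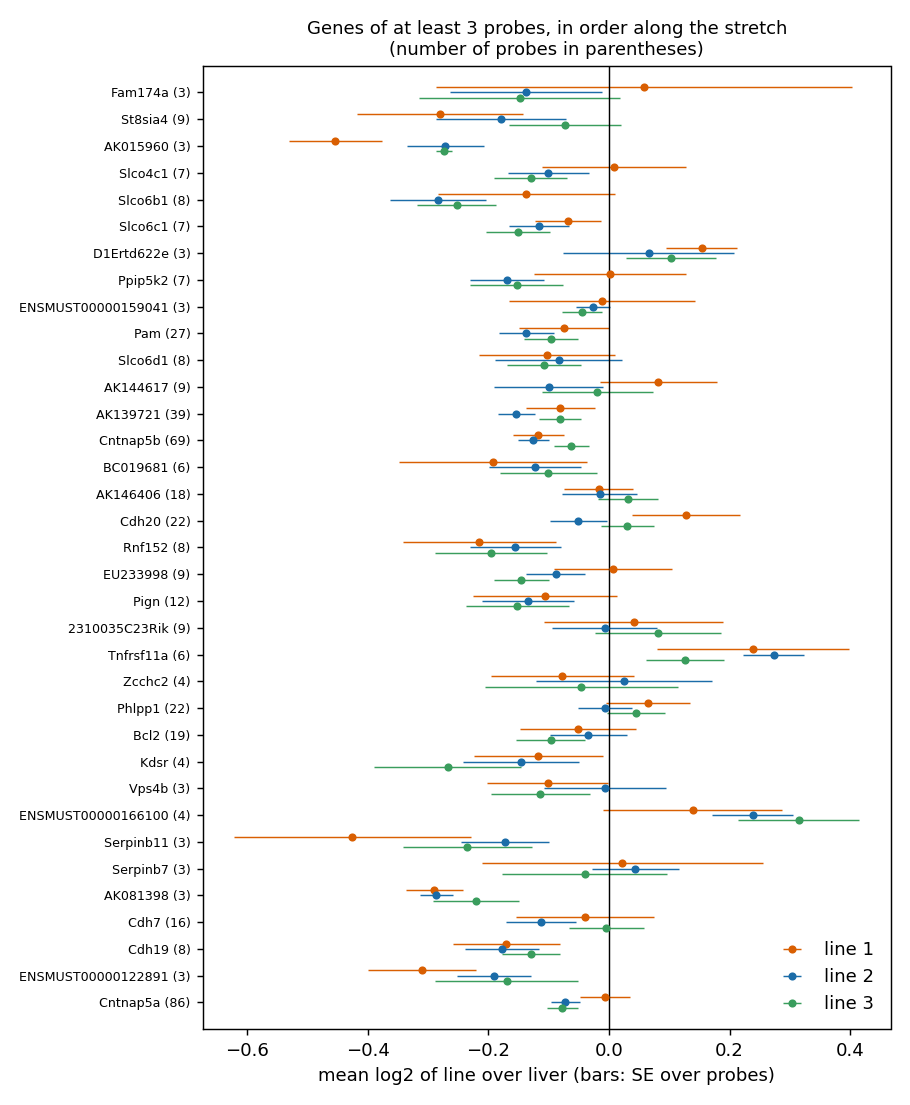
Mean log2 ratio of line over liver for the 35 genes and transcripts of at least 3 probes, in order along the stretch from top to bottom, with 1 point per line and bars for the SE over probes; the number of probes stands in parentheses. Of the 35, 21 have all 3 points below 0, and Tnfrsf11a, D1Ertd622e and ENSMUST00000166100 have all 3 above 0.

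Among names of at least 3 probes, transcripts without a gene symbol took both ends of the order. The lowest mean was that of AK015960, at -0.45, -0.27 and -0.27 over 3 probes, and AK081398 averaged -0.29, -0.29 and -0.22 over 3. ENSMUST00000122891 averaged -0.31, -0.19 and -0.17 over 3 probes. The highest was ENSMUST00000166100, which lies in the serpin cluster, at 0.14, 0.24 and 0.31 over 4 probes. D1Ertd622e averaged 0.15, 0.066 and 0.103 over 3, and 2310035C23Rik averaged 0.041, -0.0069 and 0.081 over 9. The long transcripts AK139721 (39 probes) and AK146406 (18 probes) averaged -0.105 ± 0.042 and -0.00011 ± 0.028 (SD, n = 3), so that 1 was near the level of the stretch and the other at the liver level.

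The level stepped down at the proximal bound and up at the distal bound in all 3 lines. The last 20 probes before the proximal bound averaged 0.15, 0.079 and 0.0030 in lines 1, 2 and 3, and the first 20 inside averaged -0.14, -0.15 and -0.14. The last 20 inside the distal bound averaged -0.23, -0.19 and -0.16, and the first 20 beyond it averaged 0.26, 0.101 and 0.11. The bounds were set on these values, so the step is a description. The bin from 95 to 96 Mb has 24 gene names and read 0.045, 0.057 and -0.041, and the bin from 96 to 97 Mb has 0 and read -0.071, -0.18 and -0.11. On the distal side the bins from 120 to 123 Mb have 6, 9 and 6 names, near the median of 6 on the rest of chromosome 1.

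Single genes at the bounds ranged widely on few probes. Inside the proximal bound, Pdcd1, the gene of the immune checkpoint receptor PD-1, read -0.16, -0.046 and -0.22 on 1 probe, and Fam174a averaged 0.058, -0.14 and -0.15 over 3. The single probes of AK016410 and, toward the distal bound, AK156141 were below 0 in all 3 lines, that of AK043174 was above 0 in all 3, and that of AK006865 had both signs. Just outside, D2hgdh averaged 0.504, 0.18 and 0.13 over 2 probes and Bok, a BCL2 relative, read 0.302, 0.299 and -0.084 on 1, while Kif1a, Hdlbp, Stk25, Ing5 and Gm9994 had both signs among the lines. Gm6086 and the transcript AK153979 cross the proximal bound. Gm6086 had both signs over 3 probes, and AK153979 averaged -0.068, -0.047 and -0.075 over 14 probes. Beyond the distal bound, Tsn, the gene of the nucleic acid binding protein translin, averaged 0.48, 0.26 and 0.29 over 2 probes, and Mki67ip averaged 0.398, 0.25 and 0.203 over 2. The transcript AK145806, on 1 probe, was below 0 in all 3 lines. Clasp1 (18 probes) and Gli2 (22 probes), a transcription factor of hedgehog signalling, had both signs among the lines, and Tcfcp2l1 averaged -0.29, -0.21 and -0.405 over 6. Inhbb, also in the list of flanking genes, has no probe of its name here.

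The low level did not end for good at the distal bound. Bins from 120 to 123 Mb were between -0.061 and 0.046 in all lines, and the bin from 121 to 122 Mb was slightly below 0 in each. Those from 123 to 129 Mb were below 0 in each line, though the last, from 128 to 129 Mb, read only -0.020, -0.022 and -5.5e-05. The lowest of the bins from 123 to 129 Mb was that from 124 to 125 Mb, with 1 gene name, at -0.11, -0.14 and -0.17. On the rest of chromosome 1, 15 of 168 bins had a mean over lines at or below -0.1, against 8 of 23 in the stretch.

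With the processed signals, line 2 was the lowest of the 3 lines over the stretch. The order turned in the authors' deposited value table, where line 3 stood at -0.066 and line 2 at -0.053, and after correction for gene number, where they stood at -0.055 and -0.048. On the same probes, line 2 minus line 1 averaged -0.041 (95% interval -0.057 to -0.025), line 3 minus line 2 averaged 0.031 (0.020 to 0.042), and line 3 minus line 1 averaged -0.0102 (-0.027 to 0.0066). These intervals cover probe error between single arrays only, and no difference between lines is drawn from them. On the rest of chromosome 1 the same differences were -0.0015, 0.0035 and 0.0019.

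Within the stretch, the differences between lines were larger in the neurosphere channel than in the liver channel, and on the rest of chromosome 1 the liver channel differed more between lines 1 and 2 and between lines 1 and 3. For Cy5, line 2 minus line 1 was -0.052 in the stretch and -0.0021 on the rest of chromosome 1, line 3 minus line 1 was -0.019 and 0.00088, and line 3 minus line 2 was 0.034 and 0.0033. For Cy3, line 2 minus line 1 was 0.0034 and 0.014, line 3 minus line 1 was 0.0033 and 0.011, and line 3 minus line 2 was 0.000060 and -0.0028. Each channel was set against the same probes on another array and centred on its autosomal median. As each line has 1 array, differences between arrays and between lines cannot be told apart.

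The fine shape along the stretch was partly shared. Over its 23 bins, lines 1 and 2 correlated at r = 0.62, lines 1 and 3 at r = 0.39, and lines 2 and 3 at r = 0.57. On the 168 bins of the rest of chromosome 1, the same pairs correlated at 0.74, 0.65 and 0.71. The bins share their probes, the slide and, for lines 2 and 3, the liver label, and these values are a description.

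The size of the shift depended on how the ratio was made, and its sign did not in the settings run. Over the stretch, normexp background correction gave -0.068, -0.12 and -0.092 in lines 1, 2 and 3, and loess gave -0.086, -0.12 and -0.088. In the authors' deposited value table, which has 918 of the probes on all 3 arrays, the stretch averaged -0.054, -0.053 and -0.066, so that line 2 was no longer the lowest. After correction for the number of gene names the values were -0.028, -0.048 and -0.055, and 14 of 23 bins were below 0 in all 3 lines, beside 27.2% of all autosomal bins under that correction. Correction for the mean GC content of the probes in each bin gave -0.056, -0.082 and -0.068. GC content of the sequence around the probes was not used. The order of the lines thus changed with the setting, and the shift was smallest after correction for gene number.

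**Figure D4:**
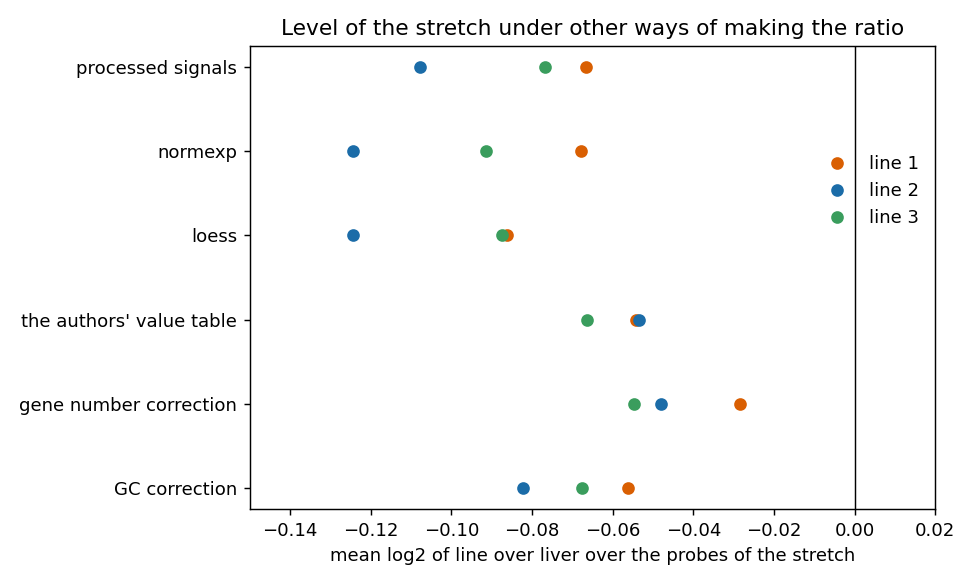
Mean log2 ratio of line over liver over the probes of the stretch (horizontal axis) under 6 ways of making the ratio (rows), with 1 point per line. All points lie below 0, and they move toward 0 in the authors' value table (-0.053 to -0.066) and after correction for gene number (-0.028 to -0.055).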

How the data were processed

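DNA of 3 neurosphere lines (Cy5) and of mouse liver (Cy3) was hybridised to 1 array each. Per the file headers, the deposited spot intensity values come from Agilent Feature Extraction 10.7.3.1, which subtracted background, detrended and dye-normalised them, and positions are on mm9. The scanner files and the authors' deposited value table also hold log10 ratios of Cy5 over Cy3. The table correlated with the scanner ratios at 0.867, 0.844 and 0.884, with slopes of 1.00, 1.01 and 0.998 of scanner on table, and column medians of 0.000435, -0.00146 and -0.00271. The slopes of table on scanner were 0.749, 0.707 and 0.783. Direction and log base are thereby settled, and the table's correction and centring are not given in the sources used here. Each array held 180880 spots, of which 6575 were controls and 160 to 179 others carried an outlier mark. Spot marks are flags of 0 or 1 as deposited.

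Control and outlier spots were left out, spots of a probe were averaged, and log2 of Cy5 over Cy3 was centred on the autosomal median of each array. Bins were 1 Mb with at least 20 probes, and genes needed at least 3. Genes are named as in the array annotation, and exon and intron annotation of mm9 was not used here. No saturated spot occurred. The spread of differences between neighbouring probes, divided by the square root of 2, was 0.387, 0.235 and 0.245.

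The region was selected on the measured ratio, so no test was run. The members and lists were chosen with earlier results of these data known. Named were all list members, genes of at least 15 probes, the 5 lowest and 5 highest genes of at least 3 probes, and 5 genes on each side of each bound. Normexp (offset 50) and loess used limma 3.58.1 in R 4.3.3, and corrections for gene number and GC used lowess (fraction 0.3) in statsmodels 0.14.6, run with scipy 1.17.1, pandas 2.3.3 and numpy 2.4.6 under Python 3.11.15. Plots used matplotlib 3.10.9. Averages, intervals and the gene number correction were run on simulated data with independent noise per probe. The intervals were thus not tried on neighbouring probes that move together, and the GC correction was not simulated.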

Additional observations from a re-analysis of the deposited data

How the results depend on the processing

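The stretch averaged -0.084 over lines and lay 0.083 below the rest of chromosome 1 (a difference of -0.083), and both stayed below 0 under every setting run. In all, 61 values were recomputed with another setting, and 8 moved beyond the limits set for them. The limits were 1 SD over lines for levels and differences, and a ratio for counts and gene names per Mb. Only a level or a difference could be marked as reversed, and 0 were. Within those limits, bins below 0 in all lines still fell from 21 to 17 of 23 with normexp or medians, to 18 in the value table and to 14 after gene number correction, and gene names per Mb fell from 2.5 to 1.71 when names of 1 probe were left out. The fall from 21 to 14 bins lay exactly at the limit for counts. Over all autosomal bins the share below 0 in all lines was 27.6% with normexp, 34.8% in the value table and 27.2% after gene number correction. The level moved to -0.058 and the difference to -0.055 in the authors' value table, and to -0.044 and -0.046 after correction for local gene number, and the cause was not tested. Of the bins, 13 of 20 were below 0 in all lines at 500 kb and 11 of 12 at 2 Mb, where other numbers of bins were counted. Of the genes, 32 of 61 were so with at least 1 probe and 7 of 10 with at least 10, where other numbers of genes were counted. Leaving out 1 line gave levels of -0.092 to -0.072, differences of -0.092 to -0.072, and 21 to 23 bins and 22 to 26 genes below 0 in both lines kept. A mark of 2 lines is looser than 1 of 3 lines. For these counts, and those with medians, other bin sizes or other probe minimums, the share over all autosomes was not computed. Nothing is read from these counts. Counting the bin of under 20 probes, chosen after seeing the data, gave 22 of 24 bins. Averaging lines 2 and 3 as 1 animal number gave a level of -0.080. No paired analysis was possible because all 3 lines form 1 group. With 3 arrays from 2 animal numbers, 1 slide and no dye swap, any effect common to the arrays cannot be told apart from the lines.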
